A study of Ovis aries with 12 samples.

Results

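The breed difference in sheep embryos (Ovis aries) at day 16 of age was measured by RNA-seq. Hulunbuir Short-tail Sheep embryos, the experimental group, were compared with Ujumqin embryos, the control group, with 3 libraries a breed. These are 6 of the 12 libraries of the study, which also holds both breeds at day 25, again with 3 libraries each. Genes were taken into the comparison when FPKM (a count of fragments corrected for gene length and library size) reached at least 1 in 3 or more of the 6 libraries, which 13280 of the 26247 listed genes did. Per the study's design text, embryos of every group had been digested with enzymes into single cells before bulk RNA-seq, and no treatment or engineered allele is named. Whether membranes around the embryo were kept is not given in the sources used here. The labels do not say which animal each library came from, so the p-values speak only of differences among these samples, whose spread may be technical. In bulk RNA, fewer cells of a type and less RNA per cell cannot be told apart.

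At this age a ruminant conceptus is a long trophoblast tube carrying a small embryo in which the primitive streak is giving way to somites, a heart tube and a neural tube. The yolk sac of this period makes the first red cells, which carry embryonic globins, and its endoderm secretes the plasma proteins that the liver makes later. Binucleate cells of the ruminant trophoblast make pregnancy-associated glycoproteins and placental lactogen. HOX genes switch on in the order of their place in the cluster, those of low paralog number first and nearest the head.

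Total counts ranged from 49944437 to 55455815 for Ujumqin and from 43131962 to 51241161 for Hulunbuir, and 16794 to 17995 genes had a count. The biological coefficient of variation, the spread between libraries of a group beyond counting noise, was 40.5% at day 16 and 17% at day 25. On log2 values, Pearson r across genes was 0.881 to 0.962 within a breed and 0.799 to 0.919 across breeds. The first principal component held 52.8% of the variance, and every Hulunbuir library lay above every Ujumqin library on it, the nearest pair being Ujumqin 3 at 4.5 and Hulunbuir 2 at 13.3. Ujumqin 3 stood apart on the second component (-72.8, 19.3% of the variance) and Hulunbuir 2 on the third (-59.9, 13.2%).

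In the 6 libraries, 3 genes differed between the breeds at an adjusted p under 0.05: 2 were higher in Hulunbuir (0.0151% of the genes tested) and 1 was lower (0.00753%). Adjusted p-values throughout are two-sided, from the quasi-likelihood test of edgeR with Benjamini-Hochberg adjustment over all tested genes, and log2 changes are Hulunbuir minus Ujumqin from the counts, with a standard error. FPKM values are as deposited and are listed for libraries 1, 2 and 3. ITGA7, the integrin alpha-7 chain that binds laminin on muscle cells (chromosome 3, 163469104 to 163492706 of Oar_v3.1), stood at 1.18, 0.958 and 1.31 FPKM in the Ujumqin libraries and 7.86, 8.43 and 8.56 FPKM in the Hulunbuir libraries. It rose 6.95-fold (log2 change 2.80 ± 0.23, adjusted p = 0.0274), with each breed's libraries close together and far from the other's. A gene listed only as ENSOARG00000002632 (chromosome 16, 4692 to 25575) stood at 0.201, 0.0888 and 0.202 FPKM in the Ujumqin libraries and 13.02, 6.73 and 12.9 FPKM in the Hulunbuir libraries. It rose (log2 change 5.93 ± 0.44, adjusted p = 0.0274), being low in every Ujumqin library, and it passed the filter only through Hulunbuir. The gene that fell is ENSOARG00000015872 (chromosome 3, 57376943 to 57377383), described in the table as ubiquitin-conjugating enzyme E2 D3. It stood at 81.6, 73.1 and 73.1 FPKM in the Ujumqin libraries and 11.01, 6.63 and 13.1 FPKM in the Hulunbuir libraries (log2 change -2.98 ± 0.26, adjusted p = 0.0274). Because another entry carries the symbol UBE2D3, reads of near-identical copies may have been split between them and its change is uncertain. In limma's voom over all 12 libraries, which called 269 genes higher and 249 lower, ITGA7 passed (adjusted p = 0.00603) but ENSOARG00000002632 and ENSOARG00000015872 did not (0.412 and 0.555).

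Without adjustment 2763 genes had a p under 0.05, 1302 higher and 1461 lower in Hulunbuir. The libraries of the breeds share replicate numbers, and libraries with the same number deviated together from their group means. No label says what a number shares. With only 3 numbers such a match may arise by chance, which was not tested, so calls that need the block are uncertain. A fit with the replicate number as a block called 155 genes higher (1.17% of the genes tested) and 177 lower (1.33%). All 3 genes above were among them. Of these 332, 262 also separated the breeds with no overlap, beside 3288 of all 13280 tested genes. Both measures come from the same 6 libraries, so this is no independent support for the calls. In the edgeR fit without the block no gene passed when Ujumqin 1, Ujumqin 2 or any of the Hulunbuir libraries was left out (2038, 1707, 1929, 2903 and 2279 genes at an unadjusted p under 0.05), whereas 45 were called higher and 196 lower without Ujumqin 3. Leaving out both libraries numbered 1 left no call with the block (1912 genes at an unadjusted p under 0.05). Leaving out those numbered 2 left 41 higher and 168 lower, and those numbered 3, 165 higher and 351 lower. Below, "passed with the block" names a gene with an adjusted p under 0.05 in the blocked fit that missed it without the block. The background for list members called with the block is 1.17% higher and 1.33% lower.

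**Figure D1:**
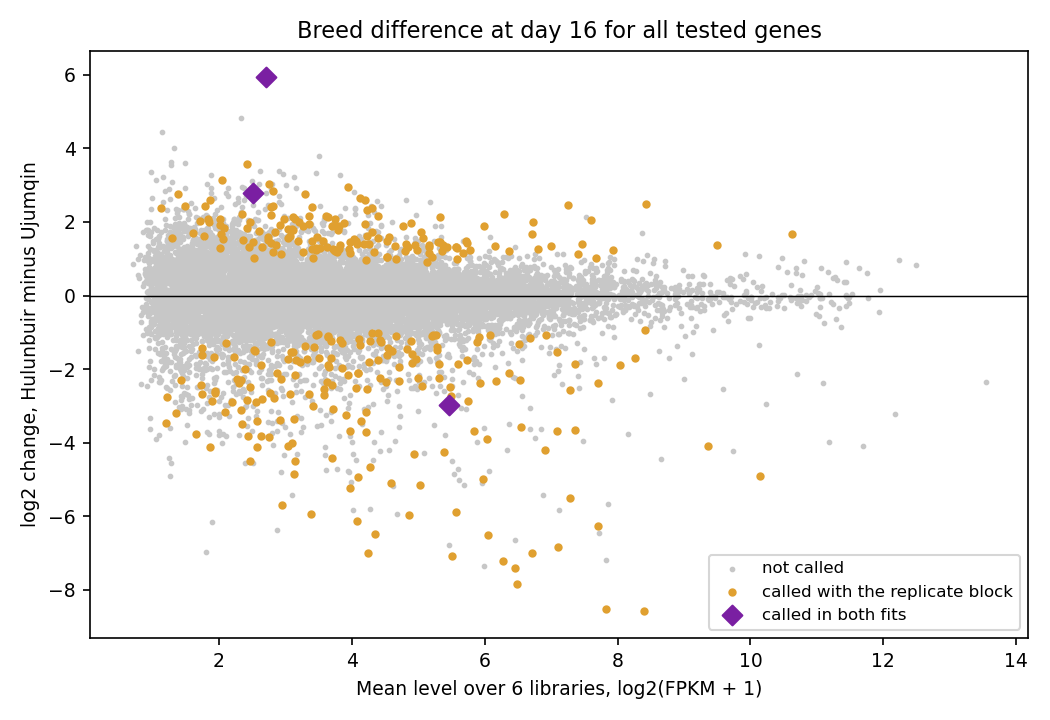
Log2 change between the breeds (vertical axis, Hulunbuir minus Ujumqin, from counts) against mean level over the 6 libraries (horizontal axis, log2(FPKM + 1)), 1 point per tested gene. The 3 genes called in both fits are diamonds, the other genes called with the replicate block are orange, and the largest changes called with the block point downward.

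As a description that needs no model of the spread, a gene is called separated when all 3 libraries of one breed lay above all 3 of the other in FPKM. Of the tested genes, 1750 were separated with Hulunbuir higher (13.2%) and 1538 with Hulunbuir lower (11.6%), so that 53.2% of the separated genes were higher. After FPKM were rescaled to a common sum the share was 64.6% (2309 higher, 1264 lower), and on counts scaled by TMM (trimmed mean of M-values, the library scaling of edgeR) it was 49.2%. Without Hulunbuir 2 the share was 64.1% (3708 higher) and without Hulunbuir 3 it was 42.9% (2759 lower). Without Ujumqin 3 both counts grew, to 3045 higher and 2472 lower. Changes of at least 4-fold were more often downward: 132 separated genes were that much higher and 314 that much lower. A count of separated genes can only stay or grow when a library is left out. Of all 13280 tested genes, 2176 were higher and 1996 lower without Ujumqin 1, and 2029 and 1823 without Ujumqin 2. Without Hulunbuir 1 these were 2295 and 1991. Without Hulunbuir 2, 2073 were lower, and without Hulunbuir 3, 2077 were higher. These counts are the background for list members counted below with a library left out. With all libraries kept that background is 13.2% higher and 11.6% lower. The median log2 change of all genes was 0.01.

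**Figure D2:**
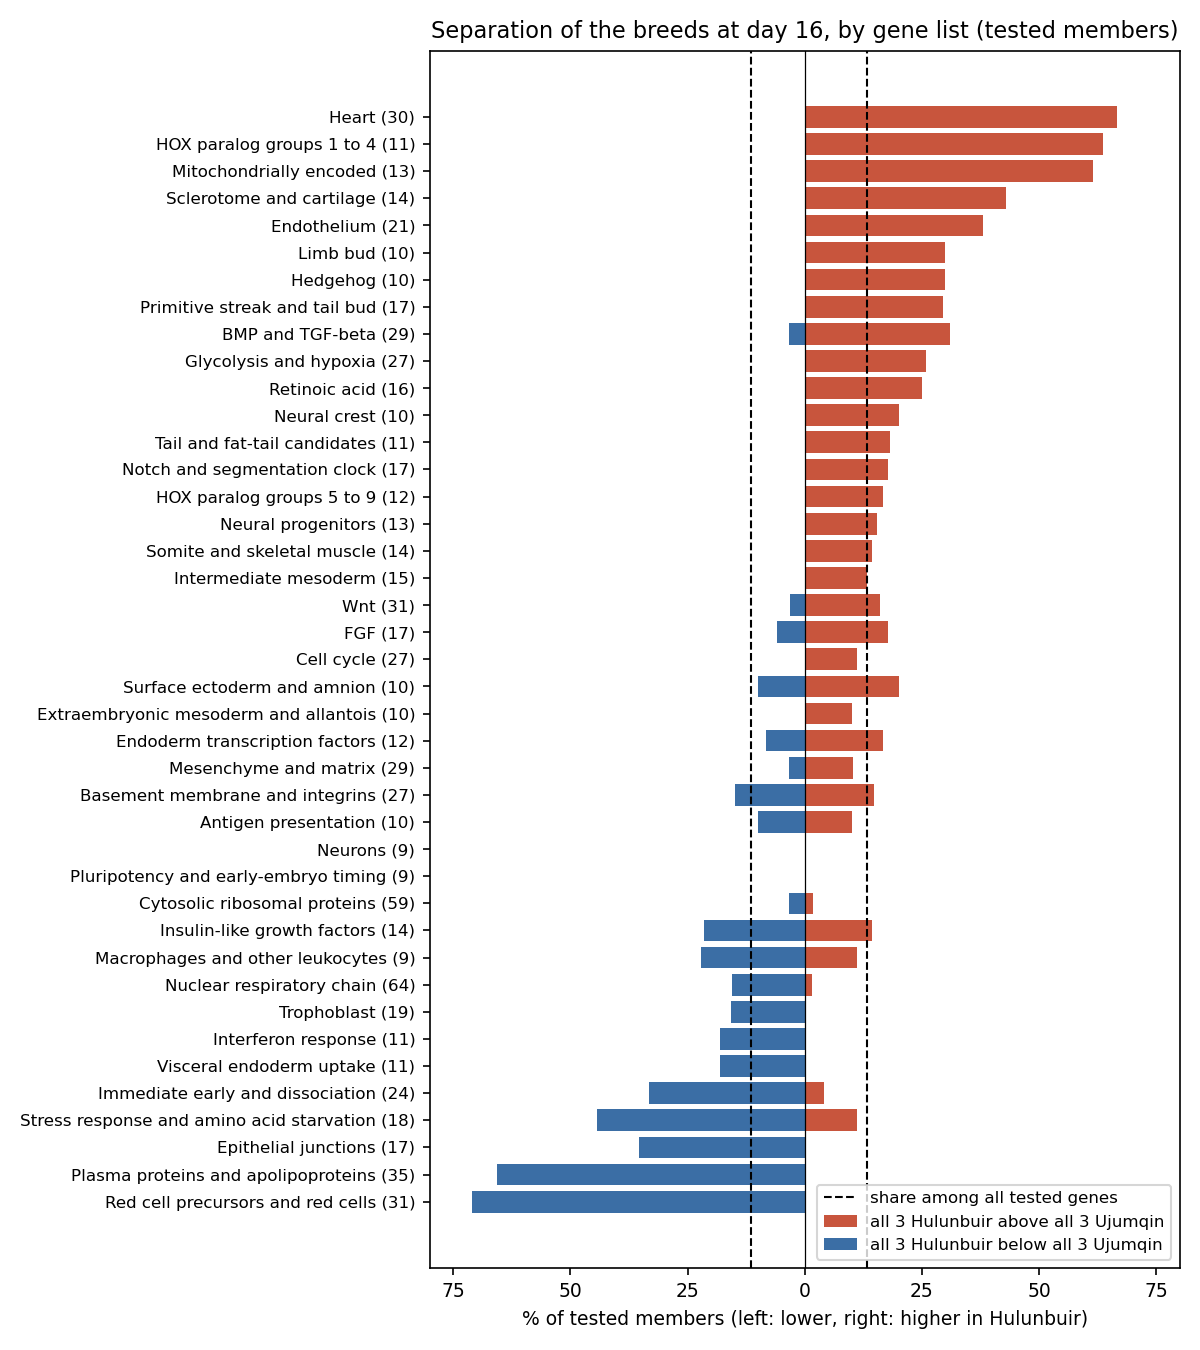
Share of the tested members of each gene list (number tested in brackets, lists of at least 9) that separated the breeds with Hulunbuir higher (right, red) or lower (left, blue), in percent. Dashed lines mark the shares among all tested genes, 13.2% higher and 11.6% lower; heart genes and the first HOX groups extend farthest to the right, red cell and plasma protein genes farthest to the left.

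Red cell genes were lower in Hulunbuir. Of 38 listed genes of red cells and their precursors, 31 were tested, 22 were separated with Hulunbuir lower and 0 with Hulunbuir higher, and the median log2 change was -2.19. The mean level of the list, in log2(FPKM + 1), was 4.16, 3.89 and 5.24 in Ujumqin and 2.30, 2.80 and 2.97 in Hulunbuir. HBZ, the zeta globin of embryonic red cells (chromosome 24, 133194 to 134250), stood at 866, 706 and 3283 FPKM in the Ujumqin libraries and 54.8, 117 and 89.5 FPKM in the Hulunbuir libraries. Its lowest Ujumqin library was 6.04 times the highest Hulunbuir library, and Ujumqin 3 was the highest of all (log2 change -4.22 ± 0.69, adjusted p = 0.0938, and 0.0514 with the block). Globin entries without a symbol were taken by description. ENSOARG00000010944, described as hemoglobin subunit alpha-1/2, stood at 849.9, 602 and 2262 FPKM in Ujumqin and 46.1, 68.5 and 111 FPKM in Hulunbuir and passed with the block (log2 change -4.10 ± 0.57, adjusted p = 0.0938, and 0.036 with the block). The entry described as hemoglobin subunit epsilon-2, ENSOARG00000019130, stood at 1034, 1103 and 4426 FPKM in Ujumqin and 24.7, 43.04 and 172 FPKM in Hulunbuir, again with no overlap and past the threshold with the block (log2 change -4.89 ± 0.93, adjusted p = 0.0952, and 0.0182 with the block). Globins of a cluster are near-identical copies, so the split of reads among them is uncertain. A fetal beta globin entry, ENSOARG00000019174, was far less abundant, at 28.8, 21.5 and 118 FPKM in Ujumqin and 3.57, 0.654 and 4.93 FPKM in Hulunbuir.

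In the red cell list 5 members of the list passed with the block, all lower: HEMGN, GATA1, ALAS2, FECH and KEL. Among all tested genes, 11.6% were separated lower and 1.33% were called lower with the block. GATA1, the transcription factor that drives red cell differentiation, stood at 24.2, 17.9 and 48.97 FPKM in Ujumqin and 1.504, 3.91 and 3.17 FPKM in Hulunbuir (log2 change -3.42 ± 0.53, adjusted p = 0.0938, and 0.0489 with the block). ALAS2, the enzyme of the first step of heme synthesis in red cells, stood at 80.9, 58.3 and 172 FPKM in Ujumqin and 2.96, 10.6 and 11.4 FPKM in Hulunbuir (log2 change -3.68 ± 0.63, adjusted p = 0.0938, and 0.0485 with the block). HEMGN, a nuclear protein of red cell precursors and like the 2 genes before it highest in Ujumqin 3, had the lowest log2 change of the list, at 22.2, 19.2 and 93.2 FPKM in Ujumqin and 0.976, 0.741 and 2.42 FPKM in Hulunbuir (log2 change -5.11 ± 0.77, adjusted p = 0.0938, and 0.0182 with the block). In all 3 genes every Ujumqin library was above every Hulunbuir library. FECH, which inserts iron into heme, had a log2 change of -2.32 and KEL, a blood group membrane protein, one of -2.002 (adjusted p with the block 0.0439 and 0.0483). The most abundant overlapping members were SLC25A37 and EPB41. SLC25A37, the mitochondrial iron importer, stood at 32.4, 29.2 and 103 FPKM in Ujumqin and 15.4, 26.2 and 37.8 FPKM in Hulunbuir, and EPB41, a membrane skeleton protein, at 36.96, 33.05 and 44.6 FPKM in Ujumqin and 24.9, 38.2 and 32.2 FPKM in Hulunbuir. Without Ujumqin 3 the number of separated members was again 22. Ujumqin 3 had the highest level of this list and the lowest trophoblast level of the Ujumqin libraries, given below. A pair of enzymes of red cells that are not in the list were separated as well. CA2, a carbonic anhydrase, stood at 31.97, 51.2 and 36.3 FPKM in Ujumqin and 6.999, 12.5 and 12.5 FPKM in Hulunbuir, and BLVRB, a biliverdin reductase, at 62.6, 53.6 and 104 FPKM in Ujumqin and 13.1, 14.1 and 12.9 FPKM in Hulunbuir, and both passed with the block (adjusted p = 0.036 and 0.0421).

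Plasma protein genes were lower in Hulunbuir as well. Of 41 listed genes, 35 were tested, 23 were separated with Hulunbuir lower and 0 with Hulunbuir higher, with a median log2 change of -2.12. AHSG, fetuin-A, was the most abundant gene of the Ujumqin embryos and stood at 12963, 13954 and 33166 FPKM in the Ujumqin libraries and 1552, 7086 and 2767 FPKM in the Hulunbuir libraries. Its Hulunbuir libraries differed among themselves, Hulunbuir 2 being the highest, yet none reached the lowest Ujumqin library (log2 change -2.36 ± 0.70, adjusted p = 0.144, and 0.0888 with the block). SERPINA1, the alpha-1 antitrypsin of plasma, stood at 2898, 2889.7 and 13068 FPKM in Ujumqin and 101, 661 and 328 FPKM in Hulunbuir (log2 change -4.08 ± 0.94, adjusted p = 0.115, and 0.0678 with the block). ORM1, an acute phase glycoprotein, stood at 5112, 5924 and 14154 FPKM in Ujumqin and 269.9, 1741 and 580.3 FPKM in Hulunbuir. These 3 genes were highest in Ujumqin 3, and among the Hulunbuir libraries in Hulunbuir 2. FETUB, a cystatin related to fetuin-A, stood at 2518, 1722 and 2176 FPKM in Ujumqin and 202, 457 and 169.9 FPKM in Hulunbuir (log2 change -2.94 ± 0.50, adjusted p = 0.0938, and 0.0514 with the block). APOM, an apolipoprotein of HDL, stood at 317, 311 and 636 FPKM in Ujumqin and 49.2, 84.5 and 43.997 FPKM in Hulunbuir (log2 change -2.83 ± 0.44, adjusted p = 0.0938, and 0.0539 with the block), and APOA2, another HDL protein, at 1167, 1162 and 1579.9 FPKM in Ujumqin and 215, 329 and 133 FPKM in Hulunbuir.

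One plasma gene passed with the block, APOA4, an apolipoprotein of chylomicrons, at 28.9, 10.1 and 2.104 FPKM in Ujumqin and 1.304, 1.03 and 0.0983 FPKM in Hulunbuir (adjusted p = 0.0368 with the block). The most abundant overlapping members were also lipid carriers. APOE, the ligand of LDL family receptors, overlapped at 3416, 3427 and 1592 FPKM in Ujumqin and 1808, 5628 and 837 FPKM in Hulunbuir (log2 change 0.01 ± 0.74, adjusted p = 0.996), and its log2 change was -0.46 with the block. APOA1, the main HDL protein, overlapped at 4046, 3504 and 2684 FPKM in Ujumqin and 2015, 2849 and 731 FPKM in Hulunbuir (log2 change -0.87 ± 0.54, adjusted p = 0.387). With Hulunbuir 2 left out the count of separated lower members was 30 of 35.

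Transcription factors of endoderm were near the background: of 12 tested, 2 were separated higher and 1 lower, with a median of -0.03 that was -0.57 without Hulunbuir 1 and 0.23 without Hulunbuir 3. HNF4A, which drives liver and yolk sac genes, stood at 26.7, 18.4 and 35.96 FPKM in Ujumqin and 14.1, 17.1 and 4.84 FPKM in Hulunbuir and was the separated lower one (log2 change -1.16 ± 0.52, adjusted p = 0.259). SOX17, a factor of definitive endoderm and of early vessels, stood at 2.26, 1.7003 and 6.67 FPKM in Ujumqin and 10.4, 10.6 and 10.02 FPKM in Hulunbuir (log2 change 1.51 ± 0.53, adjusted p = 0.179), with all Hulunbuir libraries close to each other. GATA6 overlapped at 29.4, 21.9 and 18.4 FPKM in Ujumqin and 25.2, 33.1 and 27.4 FPKM in Hulunbuir. Genes of uptake by visceral endoderm were lower in 9 of 11 by log2 change, but 2 were separated: AMN, the anchor of the cubilin receptor, at 38.5, 40.4 and 54.6 FPKM in Ujumqin and 14.01, 28.6 and 11.1 FPKM in Hulunbuir, and FOLR1, a folate receptor, at 6.999, 18.6 and 3.46 FPKM in Ujumqin and 2.48, 1.81 and 0.662 FPKM in Hulunbuir. Without Ujumqin 3, 7 were.

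Trophoblast genes as a list had a higher mean level in Ujumqin 1 and 2 than in the other 4 libraries, though single members differed from this order. Of 38 listed genes 19 were tested, and the median log2 change was -1.01. With Hulunbuir lower 3 were separated, near the 11.6% of all tested genes, and with Hulunbuir higher 0 were. Without Ujumqin 3, 11 were separated, where all 13280 tested genes held 3045 higher and 2472 lower. The mean level of the list, in log2(FPKM + 1), was 5.52, 6.23 and 4.30 in Ujumqin and 4.31, 4.53 and 3.52 in Hulunbuir, so that Ujumqin 3 lay within the range of Hulunbuir. S100G, the calbindin that carries calcium across trophoblast (chromosome X, 14125427 to 14128755), stood at 108, 509 and 290.5 FPKM in the Ujumqin libraries and 3.13, 13.5 and 2.904 FPKM in the Hulunbuir libraries. It was low in every Hulunbuir library and passed with the block (log2 change -5.51 ± 0.94, adjusted p = 0.0938, and 0.028 with the block). PPARG, a nuclear receptor needed for trophoblast differentiation, stood at 20.5, 75.5 and 9.798 FPKM in Ujumqin and 0.635, 2.99 and 0.456 FPKM in Hulunbuir and passed with the block (log2 change -4.67 ± 1.12, adjusted p = 0.118, and 0.0182 with the block). DLX3, a homeobox gene of placenta, stood at 8.51, 24.3 and 2.57 FPKM in Ujumqin and 2.37, 1.83 and 1.28 FPKM in Hulunbuir (log2 change -2.74 ± 0.81, adjusted p = 0.143, and 0.0904 with the block). GATA3, a trophoblast factor, overlapped at 24.2, 74.997 and 9.003 FPKM in Ujumqin and 10.3, 7.77 and 8.94 FPKM in Hulunbuir, and its highest library was Ujumqin 2. The most abundant member, the keratin KRT8, overlapped at 3002, 2029.6 and 1384 FPKM in Ujumqin and 4247, 3153 and 1319.7 FPKM in Hulunbuir, with its highest value in Hulunbuir 1. CDX2, which marks trophoblast, hindgut and tail bud, stood at 13.1, 19.9 and 3.901 FPKM in Ujumqin and 36.4, 12.8 and 2.87 FPKM in Hulunbuir.

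Placental glycoproteins were singled out after their values were seen. The table holds 20 entries described as pregnancy-associated glycoproteins, all on chromosome 21, of which 6 passed the filter. Their summed FPKM was 810.6, 3186 and 1.88 in Ujumqin and 8.726, 14.29 and 0.4771 in Hulunbuir. Ujumqin 1 and 2 were far above the other 4 libraries, Ujumqin 3 was below Hulunbuir 1 and 2, and 1 of the 20 entries was separated. PAG5 stood at 102, 415 and 0.0556 FPKM in Ujumqin and 0.413, 2.57 and 0.0001 FPKM in Hulunbuir, and 0.0001 is the value the table gives where no read was counted. It passed with the block (log2 change -7.39 ± 2.65, adjusted p = 0.187, and 0.0182 with the block), as did 4 of the 6 tested entries. They are near-identical copies, so values of single entries are uncertain. An entry described as placental lactogen, ENSOARG00000008865, was likewise far higher in Ujumqin 1 and 2 than in the other 4 libraries, at 15.7, 46.99 and 0.0001 FPKM in Ujumqin and 0.0001, 0.152 and 0.0001 FPKM in Hulunbuir, and an entry described as placenta-expressed transcript 1, ENSOARG00000016674, was so at 375, 1625 and 2.85 FPKM in Ujumqin and 2.43, 2.81 and 0.0001 FPKM in Hulunbuir. AKR1B1, an aldo-keto reductase of prostaglandin metabolism and among the 5 most abundant genes of Ujumqin by mean, stood at 2732, 10244 and 127 FPKM in Ujumqin and 337, 322 and 209.7 FPKM in Hulunbuir (log2 change -3.98 ± 1.30, adjusted p = 0.163, and 0.243 with the block). Of the 177 genes lower with the block, 125 were highest in Ujumqin 2. The matching share among all genes lower in Hulunbuir was not counted, so this number has no background and measures no part of trophoblast in the calls. These trophoblast levels moved with the breeds through Ujumqin 1 and 2, and their part in the other results was not tested.

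Genes of epithelial junctions were lower in 16 of 17 tested members by log2 change (median -1.40), and 6 were separated, none with Hulunbuir higher. Leaving out Ujumqin 3 raised the count to 12 and leaving out Hulunbuir 1 to 11. CDH1, E-cadherin of epithelial contacts, stood at 81.6, 140.5 and 53.99 FPKM in Ujumqin and 38.98, 20.6 and 20.8 FPKM in Hulunbuir (log2 change -1.85 ± 0.44, adjusted p = 0.117, and 0.063 with the block). RAB25, a GTPase of apical recycling, and CLDN4, a tight junction claudin, passed with the block (adjusted p = 0.0468 and 0.0416). CLDN4 stood at 272, 412 and 78.2 FPKM in Ujumqin and 109, 77.8 and 26.7 FPKM in Hulunbuir, where Hulunbuir 1 overlapped Ujumqin 3. CLDN6, a claudin of early embryonic epithelia, overlapped at 243, 429 and 123 FPKM in Ujumqin and 336, 109.7 and 88.5 FPKM in Hulunbuir. Other epithelial and transport genes were among the largest downward log2 changes among separated genes. ATP6V0A4, a proton pump subunit, stood at 10.5, 25.3 and 3.61 FPKM in Ujumqin and 0.508, 0.193 and 0.0808 FPKM in Hulunbuir (log2 change -5.69 ± 0.99, adjusted p = 0.0938, and 0.0371 with the block), and CWH43, an enzyme of GPI anchor lipids, at 23.5, 82.1 and 1.41 FPKM in Ujumqin and 0.465, 0.318 and 0.0607 FPKM in Hulunbuir. ATP6V0A4 and CWH43 passed the filter only through Ujumqin, so their separation was fixed by the filter. CD55, which protects cells from complement, stood at 37.3, 94.5 and 5.41 FPKM in Ujumqin and 1.16, 1.54 and 1.28 FPKM in Hulunbuir, and ESM1, a proteoglycan of endothelium and placenta, at 109, 266 and 6.72 FPKM in Ujumqin and 4.401, 3.99 and 6.66 FPKM in Hulunbuir. In all 4 genes Ujumqin 2 was the highest and Ujumqin 3 the lowest Ujumqin library.

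**Figure D3:**
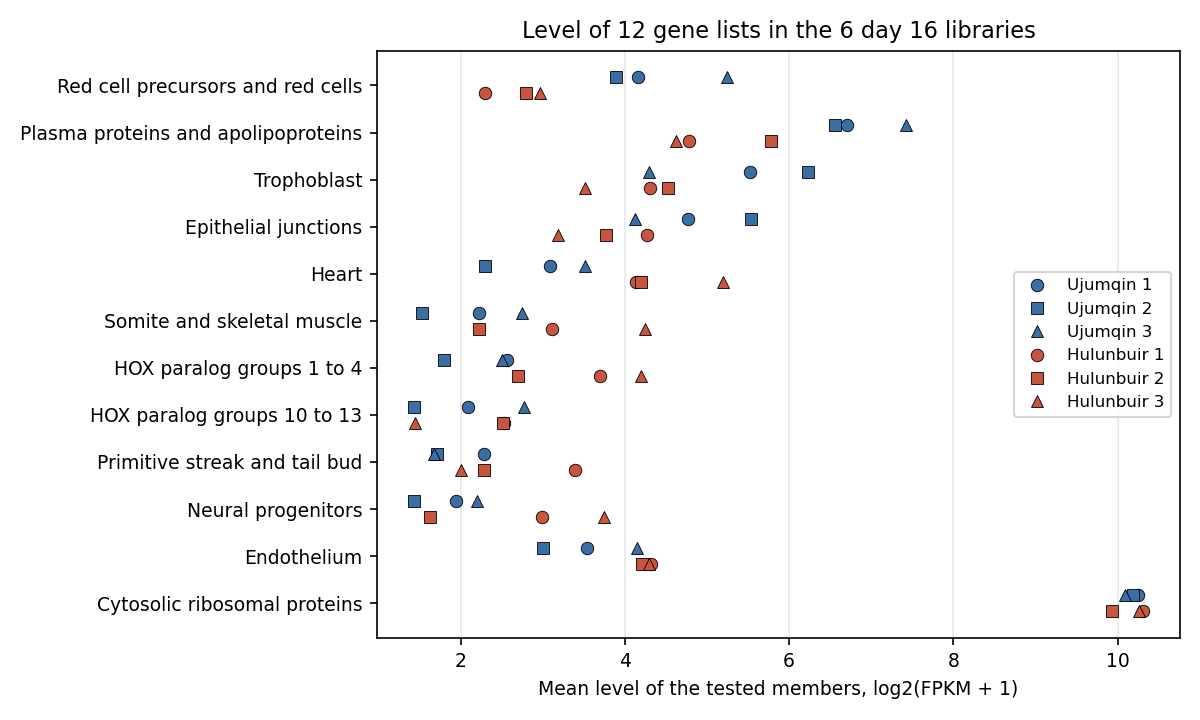
Mean level of the tested members of 12 gene lists (horizontal axis, log2(FPKM + 1)), 1 point per library, Ujumqin in blue above Hulunbuir in red, with the marker shape giving the replicate number. Red cell, plasma protein and heart lists do not overlap between breeds, the trophoblast list of Ujumqin 3 (4.30) lies among the Hulunbuir libraries, and ribosomal protein levels are close in all 6 libraries.

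Heart genes were higher in Hulunbuir. Of 35 listed genes 30 were tested, 20 were separated with Hulunbuir higher and 0 with Hulunbuir lower, and the median log2 change was 1.96. The mean level of the list was 3.09, 2.30 and 3.51 in Ujumqin and 4.13, 4.2 and 5.20 in Hulunbuir, in log2(FPKM + 1). 8 members passed with the block, all higher: NKX2-5, NKX2-6, UNC45B, ACTC1, SMYD1, TNNC1, TNNI1 and MYH7. Among all tested genes, 13.2% were separated higher and 1.17% were called higher with the block. NKX2-5, the homeobox factor of heart precursors (chromosome 16, 4945135 to 4947613), stood at 4.35, 1.53 and 3.403 FPKM in the Ujumqin libraries and 23.9, 16.3 and 36.8 FPKM in the Hulunbuir libraries (log2 change 2.96 ± 0.44, adjusted p = 0.0938, and 0.0371 with the block). Its lowest Hulunbuir library was 3.75 times the highest Ujumqin library. NKX2-6, a related factor of pharynx and heart, stood at 0.684, 0.184 and 0.983 FPKM in Ujumqin and 6.96, 4.46 and 12.8 FPKM in Hulunbuir (log2 change 3.57 ± 0.65, adjusted p = 0.0938, and 0.0386 with the block). NKX2-6 passed the filter only through Hulunbuir, so its separation was fixed by the filter. ISL1, a factor of the second heart field, stood at 1.84, 0.913 and 2.97 FPKM in Ujumqin and 5.12, 4.09 and 9.02 FPKM in Hulunbuir, and TBX5, a factor of the heart tube and forelimb, at 2.81, 0.846 and 7.17 FPKM in Ujumqin and 11.5, 10.3 and 20.8 FPKM in Hulunbuir. Both were separated and missed the threshold in both fits (adjusted p = 0.152 and 0.183, and 0.069 and 0.0785 with the block).

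ACTC1, MYH7, TNNC1, UNC45B and XIRP1 were, like the factors above, lowest in Ujumqin 2 and highest in Hulunbuir 3. ACTC1, cardiac alpha-actin, stood at 113, 43.4 and 139 FPKM in Ujumqin and 567, 381 and 811 FPKM in Hulunbuir (log2 change 2.49 ± 0.44, adjusted p = 0.0938, and 0.0368 with the block). MYH7, the slow cardiac myosin, stood at 27.3, 10.3 and 39.8 FPKM in Ujumqin and 91.9, 73.4 and 221 FPKM in Hulunbuir, and TNNC1, the troponin C of heart and slow muscle, at 47.2, 20.6 and 50.1 FPKM in Ujumqin and 134, 94.3 and 280.5 FPKM in Hulunbuir. UNC45B, a chaperone that folds muscle myosin, stood at 5.82, 1.96 and 5.08 FPKM in Ujumqin and 28.1, 20.05 and 37.3 FPKM in Hulunbuir (log2 change 2.65 ± 0.41, adjusted p = 0.0938, and 0.0371 with the block). XIRP1, an actin-binding protein of intercalated discs named for the size of its change, stood at 0.917, 0.391 and 2.93 FPKM in Ujumqin and 11.4, 6.25 and 14.2 FPKM in Hulunbuir (log2 change 2.84 ± 0.69, adjusted p = 0.118, and 0.0451 with the block). Other members overlapped. MYL2, the ventricular myosin light chain, overlapped at 41.1, 13.6 and 91.3 FPKM in Ujumqin and 7.35, 41.8 and 155 FPKM in Hulunbuir, lowest in Hulunbuir 1. HAND2 overlapped at 24.8, 11.2 and 64.7 FPKM in Ujumqin and 63.2, 39.5 and 67.2 FPKM in Hulunbuir, and HAND1, which trophoblast also expresses, at 200.4, 300.3 and 55.6 FPKM in Ujumqin and 130.3, 168 and 60.4 FPKM in Hulunbuir. Leaving out Ujumqin 3 or Hulunbuir 1 raised the number of separated members from 20 to 25 in each case. Ujumqin 2, lowest for these genes, was the library with the highest placental glycoprotein sum; the part of this in the heart result was not tested.

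**Figure D4:**
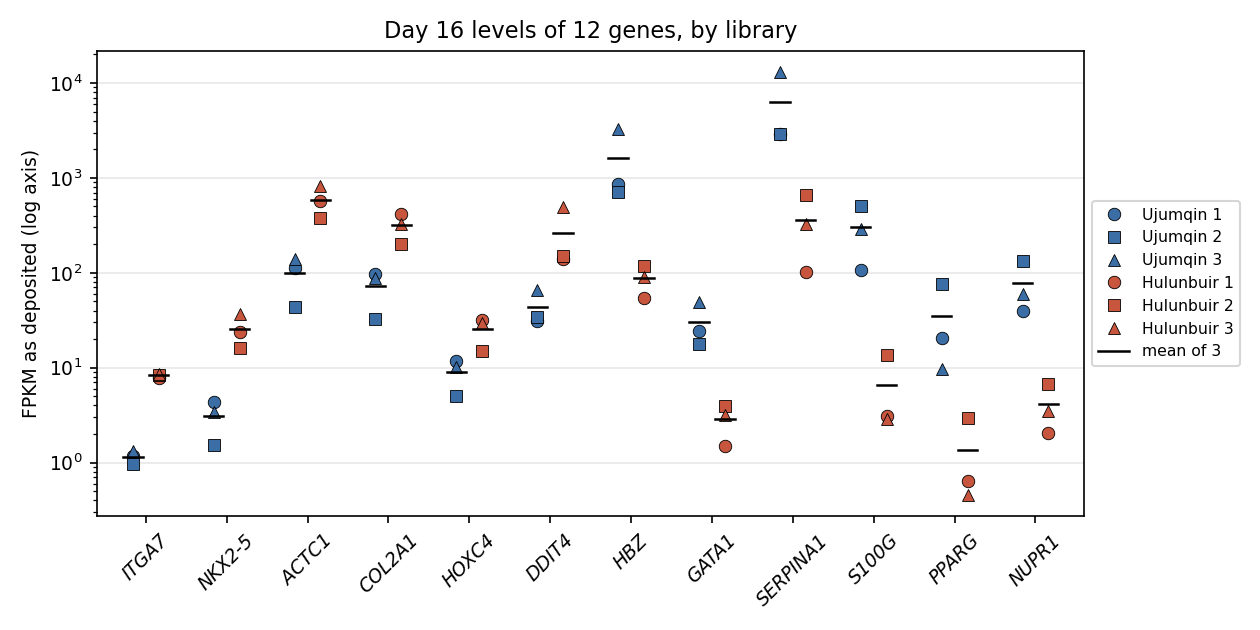
FPKM as deposited (log axis) of 12 genes in the 6 libraries, Ujumqin in blue and Hulunbuir in red, with marker shape for the replicate number and a black bar for the mean of 3. The first 6 genes have all Hulunbuir libraries above all Ujumqin libraries and the last 6 the reverse; HBZ and SERPINA1 are highest in Ujumqin 3, S100G, PPARG and NUPR1 in Ujumqin 2.

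Genes of somites and skeletal muscle were higher in 13 of 14 tested members by log2 change (median 1.39). Only 2 of them were separated, ITGA7 and ACTA1, a share near the 13.2% of all tested genes. Leaving out Hulunbuir 2, the lowest Hulunbuir library for this list, raised the count to 9. ACTA1, skeletal alpha-actin, stood at 28.8, 8.39 and 17.7 FPKM in Ujumqin and 41.4, 31.2 and 93.5 FPKM in Hulunbuir (log2 change 1.48 ± 0.51, adjusted p = 0.175, and 0.0952 with the block). TBX18, a factor of anterior somites and of the outer heart, passed with the block at 0.549, 0.41 and 1.75 FPKM in Ujumqin and 1.69, 1.39 and 9.53 FPKM in Hulunbuir (log2 change 2.08 ± 0.83, adjusted p = 0.218, and 0.0416 with the block), Hulunbuir 3 being far above the rest. The muscle regulators MYOD1 and MYOG did not pass the filter: MYOD1 had a count in 1 of the 6 libraries, at 0.0886 FPKM, and MYOG in 1, at 0.394 FPKM.

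Cartilage and sclerotome genes were separated with Hulunbuir higher in 6 of 14 tested members and lower in 0 (median 0.97). COL2A1, the main collagen of cartilage and notochord, stood at 96.8, 32.2 and 87.3 FPKM in the Ujumqin libraries and 419.8, 200.1 and 325 FPKM in the Hulunbuir libraries. It passed with the block (log2 change 2.06 ± 0.45, adjusted p = 0.111, and 0.0398 with the block), and its lowest Hulunbuir value was 2.07 times the highest Ujumqin value. COL9A2, a collagen that decorates type II fibrils, passed with the block at lower levels (2.44, 2.36 and 1.49 FPKM in Ujumqin and 9.45, 4.74 and 4.39 FPKM in Hulunbuir, adjusted p = 0.0493 with the block). HAPLN1, which links proteoglycans to hyaluronan, stood at 25.7, 22.8 and 27.3 FPKM in Ujumqin and 106, 36.9 and 82.1 FPKM in Hulunbuir, and MIA, a small secreted protein of cartilage, at 1.12, 0.884 and 1.92 FPKM in Ujumqin and 4.94, 11.4 and 14.9 FPKM in Hulunbuir. Neither passed (adjusted p = 0.114 and 0.0953, and 0.0635 and 0.057 with the block).

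HOX genes of the first paralog groups were higher in Hulunbuir. Of 11 tested genes of paralog groups 1 to 4, 7 were separated with Hulunbuir higher and all had a positive log2 change (median 1.41, lowest 0.82). Of 12 in groups 5 to 9, 2 were separated higher (median 0.56), near the 13.2% of all tested genes. Of 4 in groups 10 to 13, none was (median -0.12, and 0.22 without Hulunbuir 3 and 0.36 without Ujumqin 3). The difference between these 3 sets was not tested. HOXC4 stood at 11.8, 5.03 and 10.1 FPKM in Ujumqin and 31.8, 14.9 and 29.7 FPKM in Hulunbuir and passed with the block (log2 change 1.41 ± 0.40, adjusted p = 0.134, and 0.0466 with the block). HOXB1, the hindbrain gene of the first group, passed with the block at 4.28, 1.08 and 3.11 FPKM in Ujumqin and 23.4, 3.11 and 22.5 FPKM in Hulunbuir (log2 change 2.41 ± 0.76, adjusted p = 0.155, and 0.0398 with the block), with Hulunbuir 2 at the level of Ujumqin 3. HOXB2 stood at 5.09, 5.85 and 4.33 FPKM in Ujumqin and 14.3, 9.37 and 24.5 FPKM in Hulunbuir and HOXB3 at 6.76, 3.397 and 6.07 FPKM in Ujumqin and 11.2, 9.41 and 20.4 FPKM in Hulunbuir, both separated and past no threshold. HOXB5 and HOXB6 were the separated genes of the middle groups, at 10.9, 4.196 and 6.38 FPKM in Ujumqin and 20.1, 11.2 and 23.2 FPKM in Hulunbuir and at 14.2, 16.98 and 11.999 FPKM in Ujumqin and 30.4, 44.03 and 19.5 FPKM in Hulunbuir. Of the last groups, HOXA10 stood at 5.398, 2.995 and 16.8 FPKM in Ujumqin and 5.32, 9.35 and 3.19 FPKM in Hulunbuir and HOXD13 at 1.91, 1.63 and 4.04 FPKM in Ujumqin and 5.85, 6.62 and 1.47 FPKM in Hulunbuir. For HOXD13 the lowest of the 6 libraries was Hulunbuir 3, which was the highest for HOXB2. Without Hulunbuir 3, 7 genes of groups 5 to 9 were separated.

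Genes of the primitive streak and tail bud were separated with Hulunbuir higher in 5 of 17 tested members and lower in 0, and 16 had a positive log2 change (median 1.06). Their mean level was 2.29, 1.71 and 1.68 in Ujumqin and 3.39, 2.29 and 2.01 in Hulunbuir in log2(FPKM + 1), highest in Hulunbuir 1. Leaving out Hulunbuir 3 raised the separated members to 9, and leaving out Ujumqin 1 or Hulunbuir 2 to 8. TBXT, the brachyury factor of streak, notochord and tail bud, overlapped at 3.37, 1.28 and 1.15 FPKM in Ujumqin and 8.78, 2.32 and 4.51 FPKM in Hulunbuir (log2 change 1.33 ± 0.62, adjusted p = 0.275, and 0.0826 with the block). FGF8, the growth factor of the streak, was low and separated at 0.713, 0.449 and 0.476 FPKM in Ujumqin and 2.299, 1.61 and 1.11 FPKM in Hulunbuir (log2 change 1.57 ± 0.42, adjusted p = 0.129, and 0.0714 with the block). PCDH8, a protocadherin of presomitic mesoderm, stood at 0.452, 0.216 and 0.683 FPKM in Ujumqin and 1.94, 1.24 and 1.13 FPKM in Hulunbuir. FGF8 and PCDH8 passed the filter only through Hulunbuir, so their separation was fixed by the filter. GREB1, an estrogen target that presomitic mesoderm also expresses, passed with the block at 12.4, 4.16 and 8.21 FPKM in Ujumqin and 29.5, 10.5 and 30.6 FPKM in Hulunbuir (adjusted p = 0.0416 with the block).

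The Hulunbuir breed is named for its short tail, and 11 of 18 genes taken as candidates for tail length or the fat tail were tested. None passed in either edgeR fit or in DESeq2 (at an unadjusted p under 0.05, 0 without the block, 1 with it and 2 in DESeq2). Of the 11, 2 were separated, GDF11 and PDGFA, near the 13.2% of all tested genes separated higher. GDF11, which times the switch from trunk to tail, stood at 5.92, 5.51 and 6.97 FPKM in Ujumqin and 10.7, 8.598 and 9.38 FPKM in Hulunbuir (log2 change 0.59 ± 0.25, adjusted p = 0.247, and 0.2 with the block). PDGFA, a growth factor of mesenchyme, stood at 7.53, 6.27 and 9.19 FPKM in Ujumqin and 14.5, 9.41 and 9.44 FPKM in Hulunbuir, where the gap between the breeds was small (log2 change 0.48 ± 0.33, adjusted p = 0.432). PDGFD, a candidate for the fat tail in sheep, overlapped at 2.07, 1.42 and 4.38 FPKM in Ujumqin and 2.89, 2.21 and 4.42 FPKM in Hulunbuir (log2 change 0.20 ± 0.41, adjusted p = 0.803). TBX6, needed for presomitic mesoderm, overlapped at 2.58, 0.667 and 1.44 FPKM in Ujumqin and 5.43, 3.705 and 0.822 FPKM in Hulunbuir, WNT3A, the tail bud Wnt, at 1.803, 0.489 and 0.781 FPKM in Ujumqin and 4.82, 0.443 and 1.63 FPKM in Hulunbuir, and CDX4, a caudal factor, at 3.71, 1.002 and 0.817 FPKM in Ujumqin and 10.9, 3.64 and 0.791 FPKM in Hulunbuir. These 3 were highest in Hulunbuir 1. BMP2, a bone morphogenetic protein linked to fat tails, overlapped at 38.3, 28.2 and 7.58 FPKM in Ujumqin and 13.5, 17.5 and 11.9 FPKM in Hulunbuir (log2 change -0.84 ± 0.57, adjusted p = 0.428). HOXB13 had no count in any of the 6 libraries, and SHOX2 stayed below the filter at 0.305 to 2.47 FPKM.

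Among the signalling pathways, 4 Wnt genes passed with the block, all higher in Hulunbuir, with 5 of 31 separated higher and 1 lower (median 0.38). The block called 1.17% of all tested genes higher, and 13.2% were separated higher and 11.6% lower. AXIN2, a feedback target of Wnt signalling, stood at 2.61, 2.98 and 4.47 FPKM in Ujumqin and 8.28, 7.897 and 11.1 FPKM in Hulunbuir (log2 change 1.37 ± 0.26, adjusted p = 0.0938, and 0.0466 with the block). LEF1, the nuclear partner of beta-catenin, stood at 6.73, 2.95 and 6.66 FPKM in Ujumqin and 18.1, 10.3 and 20.2 FPKM in Hulunbuir, and the receptors ROR2 and FZD2 at 13.1, 7.42 and 12.9 FPKM in Ujumqin and 42.5, 18.9 and 37.9 FPKM in Hulunbuir and at 34.1, 15.9 and 28.5 FPKM in Ujumqin and 105, 35.3 and 92.8 FPKM in Hulunbuir. Those 3 passed with the block (adjusted p = 0.0466, 0.0368 and 0.0371) and were lowest in Ujumqin 2. The separated lower member was a ligand, WNT4, at 6.15, 14.2 and 3.72 FPKM in Ujumqin and 0.627, 0.561 and 1.37 FPKM in Hulunbuir (log2 change -3.33 ± 0.63, adjusted p = 0.0952, and 0.0743 with the block). Without Hulunbuir 2, 13 members were separated higher, beside 3708 of all 13280 tested genes.

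Retinoic acid genes were separated with Hulunbuir higher in 4 of 16 tested members (median 0.84), and 2 passed with the block. STRA6, the retinol transporter, stood at 4.07, 1.26 and 2.51 FPKM in Ujumqin and 16.7, 4.51 and 10.5 FPKM in Hulunbuir (log2 change 1.92 ± 0.55, adjusted p = 0.138, and 0.0286 with the block). CRABP2, which carries retinoic acid to its receptor, stood at 107, 38.8 and 129 FPKM in Ujumqin and 328, 95.3 and 353 FPKM in Hulunbuir and overlapped through Hulunbuir 2 (log2 change 1.40 ± 0.54, adjusted p = 0.21, and 0.0371 with the block). The clearing enzyme CYP26C1 stood at 0.78, 0.675 and 0.587 FPKM in Ujumqin and 3.92, 1.52 and 3.82 FPKM in Hulunbuir (log2 change 2.08 ± 0.37, adjusted p = 0.0938, and 0.0536 with the block). CYP26C1 passed the filter only through Hulunbuir, so its separation was fixed by the filter. ALDH1A2, which makes retinoic acid in somites, overlapped at 19.7, 6.799 and 27.8 FPKM in Ujumqin and 34.7, 6.12 and 70.3 FPKM in Hulunbuir. Leaving out Hulunbuir 2 raised the count to 9, and that of all 13280 tested genes to 3708.

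BMP and TGF-beta genes were separated higher in 9 of 29 and lower in 1 (median 0.34). BMPER, a secreted BMP modulator of vessels, passed with the block at 2.46, 1.49 and 3.63 FPKM in Ujumqin and 12.8, 8.35 and 12.5 FPKM in Hulunbuir (log2 change 2.08 ± 0.34, adjusted p = 0.0938, and 0.0416 with the block), and ID3, a direct BMP target, at 14.1, 15.6 and 25.97 FPKM in Ujumqin and 50.1, 31.9 and 71.7 FPKM in Hulunbuir (log2 change 1.38 ± 0.31, adjusted p = 0.114, and 0.0437 with the block). The ligand BMP4 stood at 21.02, 17.4 and 13.2 FPKM in Ujumqin and 26.8, 24.5 and 22.5 FPKM in Hulunbuir, a smaller difference (log2 change 0.46 ± 0.25, adjusted p = 0.334). The separated lower member, GDF6, stood at 3.02, 9.16 and 1.29 FPKM in Ujumqin and 0.989, 0.254 and 0.901 FPKM in Hulunbuir. GDF6 passed the filter only through Ujumqin, so its separation was fixed by the filter. In the hedgehog pathway 3 of 10 members were separated, all higher, among them the transducer SMO at 30.9, 13.5 and 33.4 FPKM in Ujumqin and 61.8, 42.4 and 65.1 FPKM in Hulunbuir and the target GLI1 at 4.17, 2.63 and 5.07 FPKM in Ujumqin and 7.196, 5.37 and 10.97 FPKM in Hulunbuir. Neither passed in either edgeR fit, both had an unadjusted p under 0.05 there, and 1 passed in DESeq2. Without Ujumqin 3, 6 members were separated. In the Notch list 3 of 17 were separated higher, near the background, namely NOTCH1, HES1 and LFNG, with NOTCH1 at 6.59, 4.59 and 6.46 FPKM in Ujumqin and 10.7, 8.34 and 14.5 FPKM in Hulunbuir and adjusted p = 0.124; without Hulunbuir 2 there were 7. Of 17 FGF genes 3 were separated higher and 1 lower, again near the background, and FGFR1, a receptor of mesoderm, stood at 58.7, 29.2 and 35.7 FPKM in Ujumqin and 106, 64.2 and 102 FPKM in Hulunbuir.

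Neural lists rested on Hulunbuir 1 and 3. All 13 tested genes of neural progenitors had a positive log2 change (median 1.25), yet 2 were separated, OTX2 and LHX2, a share near the background. Without Hulunbuir 2, 12 of 13 were, beside 3708 of all 13280 tested genes separated higher. The mean level of the list in log2(FPKM + 1) was 1.95, 1.43 and 2.20 in Ujumqin and 2.99, 1.63 and 3.75 in Hulunbuir. NES, the intermediate filament nestin of neural progenitors, passed with the block at 78.04, 27.6 and 81.05 FPKM in Ujumqin and 177, 74.2 and 227 FPKM in Hulunbuir (log2 change 1.25 ± 0.48, adjusted p = 0.205, and 0.0423 with the block). OTX2, a forebrain and midbrain factor, stood at 0.3, 0.0001 and 0.361 FPKM in Ujumqin and 1.79, 1.02 and 3.92 FPKM in Hulunbuir, and its lowest Ujumqin library had no count. It passed the filter only through Hulunbuir, so its separation was fixed by the filter. LHX2, a forebrain factor, stood at 2.44, 0.733 and 1.76 FPKM in Ujumqin and 4.97, 2.45 and 10.3 FPKM in Hulunbuir. Of 9 neuronal genes none was separated, and 5 were without Hulunbuir 2. STMN2, a tubulin regulator of growing neurons, stood at 11.3, 5.33 and 7.02 FPKM in Ujumqin and 27.1, 9.24 and 63.5 FPKM in Hulunbuir, with Hulunbuir 2 between the Ujumqin values.

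Of 10 neural crest genes 2 were separated higher, TWIST1 and MSX1, and none lower, beside 13.2% and 11.6% of all tested genes. TWIST1, a factor of crest and mesenchyme, passed with the block at 16.5, 7.14 and 18.3 FPKM in Ujumqin and 44.2, 23.6 and 81.2 FPKM in Hulunbuir (log2 change 1.72 ± 0.47, adjusted p = 0.131, and 0.0416 with the block). SNAI2 overlapped at 74.6, 59.3 and 66.4 FPKM in Ujumqin and 45.5, 75.3 and 51.8 FPKM in Hulunbuir (log2 change -0.24 ± 0.29, adjusted p = 0.65). Endothelial genes were separated higher in 8 of 21 members and lower in 0 (median 0.67); without Ujumqin 3, 16 were. TIE1, a receptor of embryonic vessels, stood at 16.7, 13.8 and 16.9 FPKM in Ujumqin and 41.1, 39.9 and 34.4 FPKM in Hulunbuir (log2 change 1.24 ± 0.21, adjusted p = 0.0938, and 0.0535 with the block). FLT4, the VEGF receptor of lymphatic and early vessels, passed with the block at 2.51, 1.14 and 1.82 FPKM in Ujumqin and 8.24, 5.21 and 7.26 FPKM in Hulunbuir (log2 change 1.85 ± 0.33, adjusted p = 0.0938, and 0.0397 with the block). PECAM1, a junction protein of all endothelium, overlapped at 35.3, 14.9 and 52.5 FPKM in Ujumqin and 32.1, 31.6 and 46.2 FPKM in Hulunbuir (log2 change 0.04 ± 0.40, adjusted p = 0.964). The medians of the vessel and red cell lists were opposite in sign, 0.67 and -2.19, and the cause was not tested.

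Among limb bud genes 3 of 10 were separated, all higher (TBX5, MSX1 and SALL1), and of 15 genes of intermediate mesoderm 2 were, RET and SALL1, a share at the background. SALL1, a zinc finger factor of limb and kidney, passed with the block at 9.33, 3.74 and 8.13 FPKM in Ujumqin and 24.6, 10.9 and 22.4 FPKM in Hulunbuir (log2 change 1.36 ± 0.39, adjusted p = 0.139, and 0.0386 with the block). RET, the receptor of the ureteric bud, stood at 2.03, 1.23 and 1.37 FPKM in Ujumqin and 4.03, 2.36 and 5.86 FPKM in Hulunbuir. LIN28A, an RNA-binding protein of early embryos, passed with the block at 186, 71.1 and 155 FPKM in Ujumqin and 474, 156 and 413 FPKM in Hulunbuir (log2 change 1.24 ± 0.46, adjusted p = 0.194, and 0.0386 with the block), with Hulunbuir 2 at the level of Ujumqin 3. Of 9 tested genes of pluripotency and early timing it alone passed with the block, and 0 were separated. DNMT3B, a de novo DNA methyltransferase, overlapped at 37.5, 37.5 and 35.8 FPKM in Ujumqin and 39.2, 26.6 and 40.1 FPKM in Hulunbuir, and NANOG stayed below the filter.

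Stress response genes were separated with Hulunbuir lower in 8 of 18 tested members and higher in 2 (median -0.55), and 4 passed with the block as lower and 1 as higher. Among all tested genes, 11.6% were separated lower and 13.2% higher, and the block called 1.33% lower and 1.17% higher. NUPR1, a chromatin protein induced by stress, stood at 39.6, 134 and 59.98 FPKM in the Ujumqin libraries and 2.04, 6.77 and 3.53 FPKM in the Hulunbuir libraries (log2 change -4.26 ± 0.70, adjusted p = 0.0938, and 0.0182 with the block). CDKN1A, the p21 inhibitor of the cell cycle, stood at 24.9, 35.4 and 15.7 FPKM in Ujumqin and 1.14, 4.799 and 1.94 FPKM in Hulunbuir (log2 change -3.26 ± 0.67, adjusted p = 0.103, and 0.0421 with the block), and HMOX1, which degrades heme, at 60.3, 54.7 and 36.5 FPKM in Ujumqin and 13.6, 11.3 and 7.97 FPKM in Hulunbuir (log2 change -2.25 ± 0.34, adjusted p = 0.0938, and 0.028 with the block). All 3 were low in every Hulunbuir library. XBP1, a factor of the unfolded protein response, stood at 161, 202 and 123 FPKM in Ujumqin and 83.1, 98.6 and 56.5 FPKM in Hulunbuir and passed too (adjusted p = 0.0456 with the block). DDIT4, an inhibitor of mTORC1 induced by hypoxia and other stress, went the other way. It stood at 31.1, 33.998 and 65.6 FPKM in Ujumqin and 141, 149.6 and 491 FPKM in Hulunbuir and passed with the block (log2 change 2.46 ± 0.51, adjusted p = 0.104, and 0.0286 with the block), Hulunbuir 3 being the highest. NUPR1 and CDKN1A were highest in Ujumqin 2, the library highest in trophoblast genes, whose part in this was not tested.

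Immediate early genes, which also rise while tissue is dissociated, were separated lower in 8 of 24 and higher in 1 (median -0.99), and without Ujumqin 3 the lower count was 14. KLF4, a zinc finger factor of epithelia, had the smallest adjusted p among genes that missed the threshold, at 10.8, 8.29 and 9.91 FPKM in the Ujumqin libraries and 0.436, 0.859 and 0.804 FPKM in the Hulunbuir libraries (log2 change -3.83 ± 0.39, adjusted p = 0.0648, and 0.0371 with the block). KLF4 passed the filter only through Ujumqin, so its separation was fixed by the filter. BTG2, an inhibitor of proliferation, stood at 29.9, 27.1 and 21.1 FPKM in Ujumqin and 7.52, 7.08 and 3.94 FPKM in Hulunbuir (log2 change -2.10 ± 0.39, adjusted p = 0.0938, and 0.0416 with the block), and JUNB, an AP-1 subunit, at 39.5, 38.5 and 9.85 FPKM in Ujumqin and 5.56, 6.41 and 6.704 FPKM in Hulunbuir (log2 change -2.30 ± 0.54, adjusted p = 0.116, and 0.0845 with the block). HSPA1A, an inducible heat shock protein, overlapped at 134, 228 and 54.6 FPKM in Ujumqin and 160.4, 341 and 167 FPKM in Hulunbuir (log2 change 0.66 ± 0.59, adjusted p = 0.545). The sources used here give no digestion times, and the part of digestion in these values was not tested.

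Markers of other cells that a sample could hold were measured as well. Of 22 leukocyte genes 9 passed the filter, 2 were separated lower and 1 higher. PTPRC, the CD45 antigen of all leukocytes, stood at 0.0171 to 0.337 FPKM over the 6 libraries. LCP1, an actin bundler of leukocytes and some epithelia, stood at 16.8, 64.8 and 2.26 FPKM in Ujumqin and 1.45, 0.448 and 1.398 FPKM in Hulunbuir (log2 change -4.79 ± 1.17, adjusted p = 0.119, and 0.161 with the block). B2M, the light chain of MHC class I, was separated lower and highest in Ujumqin 2, at 494, 1756 and 50.9 FPKM in Ujumqin and 43.2, 27.9 and 43.8 FPKM in Hulunbuir (log2 change -4.43 ± 1.13, adjusted p = 0.123, and 0.165 with the block). Of 20 genes of the uterine endometrium 7 passed the filter and 3 were separated lower, beside 11.6% of all tested genes. The median log2 change of this list was -1.85. Of the defining genes of endometrium, PGR, the progesterone receptor, had no count in any of the 6 libraries, and SERPINA14, a uterine serpin, reached at most 0.15 FPKM. PTGES, a prostaglandin E synthase, stood at 42.1, 25.005 and 13.5 FPKM in Ujumqin and 8.06, 9.82 and 4.87 FPKM in Hulunbuir, and MUC1, an epithelial mucin, at 15.4, 28.2 and 9.61 FPKM in Ujumqin and 8.51, 4.05 and 2.801 FPKM in Hulunbuir. SPP1, osteopontin, passed with the block in the other direction at 18.7, 6.705 and 21.7 FPKM in Ujumqin and 73.8, 15.8 and 58.8 FPKM in Hulunbuir (log2 change 1.56 ± 0.59, adjusted p = 0.202, and 0.0446 with the block). Interferon response genes were near the background: 2 of 11 were separated lower and 0 higher, with a median of -0.04.

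Of 14 genes of the insulin-like growth factor system 2 were separated higher and 3 lower, beside 13.2% and 11.6% of all tested genes. IGFBP2, a binding protein of early embryos, passed with the block at 615, 255 and 287 FPKM in Ujumqin and 1336, 782 and 1030.4 FPKM in Hulunbuir (log2 change 1.37 ± 0.39, adjusted p = 0.138, and 0.0466 with the block). IGFBP3 and IGFBP1, other binding proteins, were separated lower at 125, 73.9 and 58.02 FPKM in Ujumqin and 22.8, 14.6 and 27.3 FPKM in Hulunbuir (log2 change -2.08 ± 0.35, adjusted p = 0.0938, and 0.0504 with the block) and at 239.7, 128 and 271 FPKM in Ujumqin and 21.2, 74.2 and 48.2 FPKM in Hulunbuir (log2 change -2.16 ± 0.53, adjusted p = 0.118, and 0.0965 with the block). The growth factor IGF2 overlapped at 724, 313 and 664 FPKM in Ujumqin and 346, 438 and 496 FPKM in Hulunbuir (log2 change -0.46 ± 0.34, adjusted p = 0.461). Of 27 genes of glycolysis and hypoxia 7 were separated higher and 0 lower (median 0.34); without Ujumqin 1, 16 were. ENO2, the enolase of neurons, passed with the block at 2.64, 1.01 and 2.35 FPKM in Ujumqin and 11.3, 5.22 and 12.8 FPKM in Hulunbuir (log2 change 2.19 ± 0.42, adjusted p = 0.0953, and 0.028 with the block). SLC2A3, a glucose transporter of embryo and placenta, stood at 862, 489 and 395 FPKM in Ujumqin and 1507, 974 and 1587 FPKM in Hulunbuir (log2 change 1.13 ± 0.36, adjusted p = 0.155, and 0.0808 with the block).

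Cytosolic ribosomal proteins had a median log2 change of -0.06 over 59 genes, with 1 separated higher and 2 lower. Nuclear genes of the respiratory chain were separated lower in 10 of 64 and higher in 1 (median -0.21), a lower share near the background, and without Hulunbuir 1 the lower count was 28. SDHC, a subunit of succinate dehydrogenase, stood at 147, 173 and 147 FPKM in Ujumqin and 123, 105 and 99.8 FPKM in Hulunbuir (log2 change -0.57 ± 0.20, adjusted p = 0.189). The 13 genes of the mitochondrial genome were separated higher in 8 and lower in 0 (median 0.56). CYTB, of complex III, stood at 4186, 4514 and 3573 FPKM in Ujumqin and 7398, 8911 and 6089.5 FPKM in Hulunbuir (log2 change 0.83 ± 0.30, adjusted p = 0.192, and 0.0899 with the block), and COX1 of complex IV, the only member with a negative change, overlapped at 2881, 3682 and 1689.8 FPKM in Ujumqin and 663, 2822 and 1441 FPKM in Hulunbuir. Cell cycle genes were separated higher in 3 of 27, which is near the background, and in 15 without Hulunbuir 2. Mesenchymal matrix genes had a median of 0.10, which was -0.54 without Hulunbuir 2 and -0.04 without Ujumqin 2: COL1A1, the main collagen of connective tissue, overlapped at 2591, 2177 and 2432 FPKM in Ujumqin and 1939, 5544 and 1679 FPKM in Hulunbuir, with Hulunbuir 2 highest, and LUM, a small proteoglycan, was separated lower at 655, 644 and 792 FPKM in Ujumqin and 212, 483 and 295 FPKM in Hulunbuir. FBN2, a fibrillin of embryonic matrix, passed with the block at 17.1, 13.7 and 14.2 FPKM in Ujumqin and 45.9, 24.7 and 48.2 FPKM in Hulunbuir (log2 change 1.31 ± 0.25, adjusted p = 0.0953, and 0.0485 with the block). Among integrins other than ITGA7, ITGA6, the laminin receptor of epithelia, was separated lower at 38.8, 60.4 and 51.3 FPKM in Ujumqin and 21.2, 16.99 and 25 FPKM in Hulunbuir (log2 change -1.33 ± 0.22, adjusted p = 0.0938, and 0.0514 with the block), and ITGB3, a chain of platelets and trophoblast, passed with the block as lower at 10.2, 11.7 and 34.9 FPKM in Ujumqin and 1.89, 3.77 and 5.87 FPKM in Hulunbuir (log2 change -2.35 ± 0.57, adjusted p = 0.119, and 0.0437 with the block).

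Several further genes were named by the size of their change, and SLC22A17 by its adjusted p in the test of breed by age below. SLC22A17, a receptor for lipocalin 2, was separated higher with little spread at 7.49, 7.14 and 8.43 FPKM in Ujumqin and 21.5, 20.6 and 23.1 FPKM in Hulunbuir and passed with the block (log2 change 1.44 ± 0.17, adjusted p = 0.0938, and 0.0371 with the block). LRRC4B, a synaptic adhesion protein, stood at 2.32, 1.23 and 2.92 FPKM in Ujumqin and 20.5, 6.89 and 18.98 FPKM in Hulunbuir (log2 change 2.75 ± 0.47, adjusted p = 0.0938, and 0.0343 with the block), and RRAGD, a GTPase that recruits mTORC1 to lysosomes, at 1.11, 0.528 and 0.665 FPKM in Ujumqin and 4.11, 3.79 and 9.47 FPKM in Hulunbuir (log2 change 2.78 ± 0.50, adjusted p = 0.0938, and 0.0585 with the block). IRX5, a homeobox factor, passed with the block at 0.947, 0.276 and 1.83 FPKM in Ujumqin and 6.73, 2.06 and 15.7 FPKM in Hulunbuir (log2 change 2.86 ± 0.84, adjusted p = 0.142, and 0.0365 with the block). Lower in Hulunbuir were HAL, the first enzyme of histidine breakdown, at 2.02, 3.92 and 10.1 FPKM in Ujumqin and 0.0001, 0.214 and 0.0001 FPKM in Hulunbuir, and GCNT3, a mucin glycosyltransferase, at 13.1, 26.8 and 5.13 FPKM in Ujumqin and 0.315, 0.966 and 0.269 FPKM in Hulunbuir (log2 change -4.86 ± 0.86, adjusted p = 0.0938, and 0.0272 with the block). HAL and GCNT3 passed the filter only through Ujumqin, so their separation was fixed by the filter.

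Whether the breed difference at day 16 differed from that at day 25 was tested over all 12 libraries with limma's voom, with a weight per group. At an adjusted p under 0.05, the day 16 difference lay above that at day 25 in 1281 genes (9.65%) and below it in 1020 (7.68%). Of the 332 genes called at day 16 with the block, 196 also passed this test, beside 2301 of all 13280 tested genes. Both tests hold the same day 16 difference, so this is no independent support. Without Ujumqin 1 of day 16 the total fell from 2301 to 962, without Hulunbuir 1 of day 16 to 1193, and without Ujumqin 3 of day 25 to 1517. With the replicate block it was 3820.

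Red cell genes had opposite breed differences at the 2 ages: the day 16 difference was below that at day 25 in 27 of 31 members, with median log2 changes in this fit of -2.17 at day 16 and 2.07 at day 25. HBZ stood at 1724, 2233 and 2128 FPKM in Ujumqin and 14622, 17457 and 14928 FPKM in Hulunbuir at day 25, so that the breed with the lower level at day 16 had the higher one at day 25. GATA1 stood at 16.2, 12.4 and 13.6 FPKM in Ujumqin and 107, 111 and 98.9 FPKM in Hulunbuir at day 25. For plasma proteins the test was passed downward by 27 of 35 and upward by 2, with medians of -2.35 and 1.47. AHSG stood at 3575, 2368 and 2183 FPKM in Ujumqin and 9838, 10773 and 10136 FPKM in Hulunbuir at day 25. Here too Hulunbuir was lower at day 16 and higher at day 25.

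For heart genes the test was passed upward by 9 of 30 and downward by 0, with medians of 2.01 at day 16 and 0.50 at day 25. NKX2-5 stood at 0.728, 0.228 and 0.477 FPKM in Ujumqin and 1.48, 2.402 and 3.29 FPKM in Hulunbuir at day 25, higher in Hulunbuir at both ages, and its 2 differences could not be told apart (interaction adjusted p = 0.354). ACTC1 stood at 262, 343 and 331 FPKM in Ujumqin and 331, 354 and 338 FPKM in Hulunbuir at day 25 (interaction adjusted p = 0.00143). ITGA7 stood at 3.23, 2.85 and 3.54 FPKM in Ujumqin and 3.64, 2.93 and 3.11 FPKM in Hulunbuir at day 25, where the breeds were close, and its interaction passed (2.30e-04). Of the other 2 genes called at day 16, neither passed: ENSOARG00000002632 stood at 10.5, 34.7 and 29.5 FPKM in Ujumqin and 18.5, 22.3 and 6.13 FPKM in Hulunbuir and ENSOARG00000015872 at 60.6, 21.1 and 78.9 FPKM in Ujumqin and 41.4, 5.07 and 108 FPKM in Hulunbuir at day 25, with wide spread between libraries of a breed. Cartilage genes passed upward in 8 of 14 (medians 1.0 and -0.70), and mitochondrially encoded genes in 8 of 13 (medians 0.58 and -1.26). Ribosomal proteins passed upward in 26 of 59, with medians of -0.06 at day 16 and -0.87 at day 25.

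**Figure D5:**
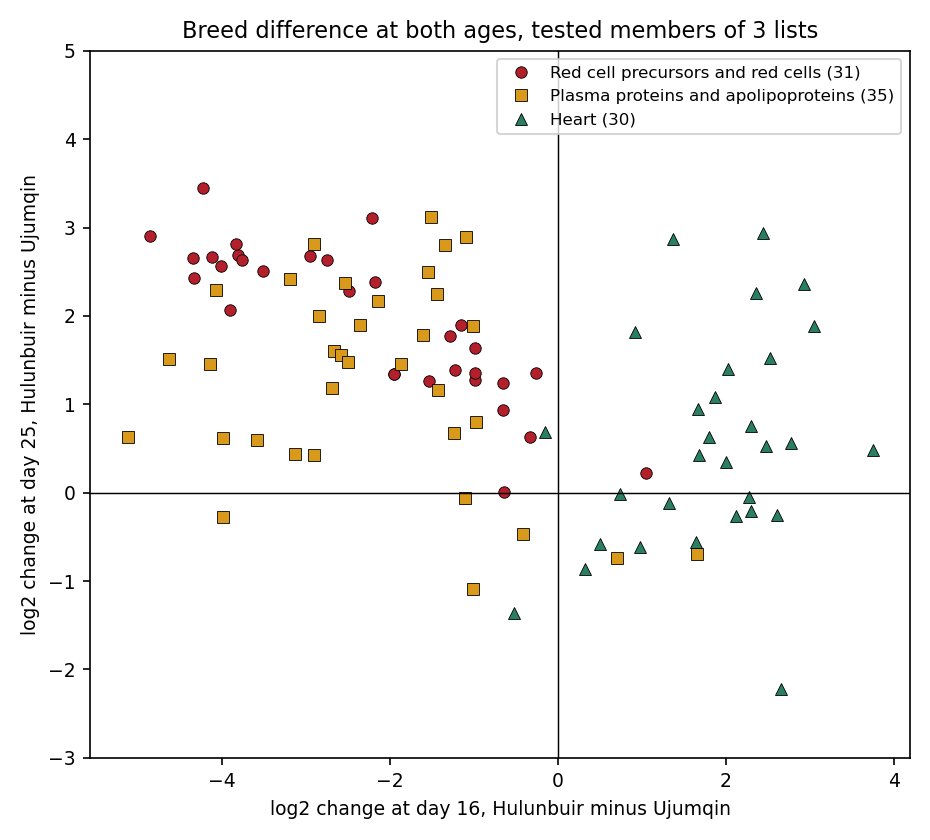
Log2 change between breeds at day 25 (vertical axis) against that at day 16 (horizontal axis), Hulunbuir minus Ujumqin, from the fit over 12 libraries, for the tested members of 3 lists (number in brackets). Red cell and plasma protein genes lie mostly at the upper left, lower in Hulunbuir at day 16 and higher at day 25, and heart genes at the right.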

How the data were processed

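Bulk RNA-seq of sheep embryos was used. Per the submitters' processing notes, cutadapt 1.9, FastQC and the Oar_v3.1 genome were used; which aligner, counter, FPKM tool and strand setting were used is not given in the sources used here. Per the file headers, the deposited table gives a count and an FPKM value per gene and library, FPKM being 0.0001 where the count is 0. Symbols came from the table (14418 genes) or the RefSeq gene table of assembly ARS-UI_Ramb_v3.0 (1300 more).

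Genes that reached 1 FPKM in 3 or more of the 6 day 16 libraries were tested with edgeR 4.0.16 (R 4.3.3, TMM, quasi-likelihood) on counts, and the interaction with limma 3.58.1. The fits were run on simulated counts with known changes. These counts had the same spread per gene in every group and no shared effect of replicate numbers. Unequal spread between ages and the pairing by number were therefore not covered. No 2 libraries were within counting noise of each other. Same-numbered libraries of the breeds deviated together from their group means (correlation 0.186, 0.339 and 0.422 across genes, all over 0.1), each library correlating best with its own number. The numbers come from the titles, and no label says what they share.

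The members and the 43 lists (1012 symbols, 756 tested) were chosen with earlier results of these data known. Named genes were those called, the 12 largest separated log2 changes per direction whose higher breed averaged 5 FPKM or more, per list the 3 separated members per direction with the smallest p and the 2 most abundant overlapping ones, the 5 most abundant per breed, the tail candidates, and the 8 separated genes with the smallest interaction p. Other genes that passed with the block, placental and globin entries, and markers below the filter were named after their values were seen. Some results are not reported here. Alternatives were other scalings, filters and spreads, DESeq2 1.42.0, limma on log2(FPKM + 1), the replicate block and leaving out libraries.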

Additional observations from a re-analysis of the deposited data

Results flagged for a closer look

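In 7 genes the breed difference at day 16 differed from that at day 25 with an adjusted p of the interaction test among the smallest of genes with no overlap at day 16. They were chosen by that p, from libraries whose spread differs between the ages. ENSOARG00000010944, an alpha globin entry, had log2 changes of -3.96 at day 16 and 2.03 at day 25 (interaction adjusted p = 7.69e-05). FHL2, a LIM protein of heart and muscle, went from -1.08 at day 16 to 1.62 at day 25 (interaction adjusted p = 7.69e-05). SLC22A17, the lipocalin 2 receptor, had log2 changes of 1.44 at day 16 and -1.01 at day 25 (interaction adjusted p = 7.69e-05). ALAS2, the red cell enzyme of heme synthesis, went from -3.83 at day 16 to 2.82 at day 25 (interaction adjusted p = 7.71e-05). CA2, a carbonic anhydrase, had log2 changes of -2.004 at day 16 and 1.72 at day 25 (interaction adjusted p = 1.18e-04). BLVRB, a biliverdin reductase, went from -2.48 at day 16 to 1.79 at day 25 (interaction adjusted p = 1.19e-04). HBZ, zeta globin, had log2 changes of -4.01 at day 16 and 2.56 at day 25 (interaction adjusted p = 1.19e-04). The sign of the difference changed between the ages in all 7. FHL2 stood at 37.2, 42.4 and 47.6 FPKM in Ujumqin and 18.5, 22.5 and 22.2 FPKM in Hulunbuir at day 16 and 28.9, 26.7 and 24.2 FPKM in Ujumqin and 111, 104 and 108 FPKM in Hulunbuir at day 25. SLC22A17, the one higher in Hulunbuir at day 16, stood at 62.1, 59.4 and 62.7 FPKM in Ujumqin and 40.4, 41.9 and 37.97 FPKM in Hulunbuir at day 25.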

How the results depend on the processing

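DESeq2 called 672 higher and 854 lower, a fit over 12 libraries with 1 spread 1202 and 1147, and voom over 12 libraries with a weight per group 269 and 249. An adjusted p under 0.10 gave 78 and 127. With the replicate block 155 and 177 were called, and without numbers 1, 2 or 3 the blocked fit called 0, 41 or 165 higher and 0, 168 or 351 lower. Leaving out 1 library gave 0 to 45 higher and 0 to 196 lower. Scaling by total count left 0 lower, no filter or FPKM of at least 5 gave 2 lower, and limma on log2(FPKM + 1) called 1 higher and 2 lower and on log2(FPKM + 0.1) 1 higher. Separated genes numbered 2029 to 3708 higher and 1823 to 2759 lower with 1 library left out. The interaction count was 3573 with a weight per library, 3820 with the replicate block, and 962 to 2792 with 1 library left out; a group with a library left out keeps 2. The log2 change of some overlapping genes turned sign under some settings. APOE was at -0.026 (total count), -0.029 (no filter), -0.42 (voom over 12 libraries), -0.42 (voom), -0.38 (log2(FPKM + 1)), -0.38 (log2(FPKM + 0.1)), -0.46 (the block), -0.18 (the block without number 1), -1.07 (the block without number 2), -0.104 (the block without number 3) and -1.21 to 0.48 with 1 library left out. CDX2 was at -0.61 (the block without number 1) and -0.63 to 0.998 with 1 library left out. COL1A1 was at -0.62 (the block without number 2) and -0.54 to 0.73 with 1 library left out. ENSOARG00000021319 was at -0.35 (the block without number 3). HOXA10 was at 0.81 (the block without number 3) and -1.05 to 0.48 with 1 library left out. HOXD13 was at -0.063 (the block without number 2). MYL2 was at -0.15 (voom over 12 libraries), -0.13 (voom), -0.008 (log2(FPKM + 1)), -0.030 (log2(FPKM + 0.1)), -0.97 (the block without number 2), -0.42 (the block without number 3) and -0.85 to 1.15 with 1 library left out. PDGFD was at -0.083 to 0.74 with 1 library left out. PECAM1 was at -0.305 (the block without number 2) and -0.31 to 0.44 with 1 library left out. WNT3A was at -0.15 to 1.74 with 1 library left out. No other tested gene named above turned sign under the alternatives run. The 3 called genes were all called with RLE, upper quartile, robust edgeR, voom on 6 libraries, DESeq2, the other filters, 12 libraries with 1 spread and the block. ITGA7 missed the threshold in limma on log2(FPKM + 1) (adjusted p = 0.0513) and log2(FPKM + 0.1) (0.0587), and ENSOARG00000015872 with total count scaling (0.0793). In the 6 libraries the edgeR calls rest on a biological coefficient of variation of 40.5%, which limits what 3 libraries a breed can show. The cause of these shifts was not tested.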

Other observations

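Genes of surface ectoderm and amnion gave values in both directions. BAMBI, a decoy receptor of BMP and activin, was separated higher in Hulunbuir at 143, 121 and 87.97 FPKM in Ujumqin and 214, 241 and 232 FPKM in Hulunbuir (log2 change 0.91 ± 0.26, adjusted p = 0.134, and 0.0737 with the block), and GABRP, a receptor subunit of amnion and epithelia, overlapped at 6.05, 3.23 and 7.28 FPKM in Ujumqin and 15.3, 4.46 and 19.1 FPKM in Hulunbuir. TP63, the basal factor of surface epithelium, did not pass the filter and stood at 6.07, 15.5 and 0.805 FPKM in Ujumqin and 0.387, 0.498 and 0.313 FPKM in Hulunbuir, highest in Ujumqin 2 and higher in every Ujumqin library than in any Hulunbuir library. Genes of extraembryonic mesoderm had a median log2 change of 0.17 over 10 members (-0.47 without Hulunbuir 2), with 1 separated higher. The most abundant genes also included a 57-base entry with no symbol, ENSOARG00000021319 (chromosome 5), at 4049, 3606 and 1575 FPKM in Ujumqin and 1536, 5834 and 12387 FPKM in Hulunbuir; FPKM of so short an entry rests on few positions.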
